A study of Mus musculus with 6 samples.

Results

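Integrins, laminins and the proteins that link laminin into the basement membrane were followed in mouse cornea without injury and after an alkali burn, a model in which vessels grow into this clear tissue. The members were chosen by name alone, as all rows of the authors' gene table whose symbol is an integrin alpha chain, an integrin beta chain with a plain number, a laminin chain, nidogen (Nid1, Nid2), perlecan (Hspg2) or agrin (Agrn). There were 42 such rows of 28539, for 41 genes, because Itga2b had 2 rows. Of the rows, 27 were integrins, 11 laminins and 4 linkers.

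Whole corneas came from female C57BL/6J mice aged 6 to 8 weeks per the labels, in 3 groups of 2 samples: untreated (day 0), 5 days after the burn and 15 days after it, the last of which the labels call a regression stage. No gene was altered in any group. Neither the alkali nor the origin of paired samples, from separate animals or not, is stated in the labels. The table gives 1 FPKM per group, pooled over its samples (fragments scaled to transcript length and library size), with the authors' interval for it, shown here in parentheses.

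Values of single samples are not in the table. Replicate spread is therefore unknown, and the comparisons below carry no test and no p-value. A pair of groups was called apart where the authors' intervals did not overlap, the higher FPKM reached 1, and the log2 ratio of (FPKM + 1) was 1 or more in either direction. Read depth is unknown. The interval reached a median of 45.6% to 47.6% of the value to either side among members at FPKM of at least 5. In these whole-tissue samples, fewer cells of a type and less RNA per cell cannot be told apart.

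A basement membrane is a thin sheet of matrix on which epithelia, vessels and muscle rest. Laminins, each a trimer of an alpha, a beta and a gamma chain, form one of its networks, type IV collagen forms the other, and nidogens, perlecan and agrin connect the networks to each other and to cells. Integrins are receptors made of 1 alpha and 1 beta chain that hold cells to matrix or to other cells. In the corneal epithelium, the integrin of alpha6 and beta4 binds a laminin with alpha3 and beta3 chains in hemidesmosomes, while beta2 integrins are found on white blood cells.

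Of the 42 members, 8 were apart in at least 1 comparison. Among those higher and apart at day 5 than at day 0 were Itga5, Itgb2, Itgb3 and Lama4, and lower and apart was Itgb7. Among those higher and apart at day 15 than at day 0 were Itga5, Itgax, Itgb2, Lama4 and Lamb3, and no member was lower and apart. Between days 5 and 15 no member was apart in either direction. Both burned groups were set against the same day 0 corneas.

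These counts stood above the share of the whole table in the upward direction. At day 5, 5 of 42 members were higher and apart, against 3.42% of the 15576 loci that reached FPKM 1 in either group, and 1 was lower and apart against 2.5%. At day 15, 6 members were higher and apart against 2.91% of 15186 loci, and none was lower and apart against 1.81%. Between the burned groups the whole-table shares were 0.395% higher and 0.388% lower. Of the 42 members, 36 reached FPKM 1 in at least 1 group. Of these 36, 4 (Itga5, Itgb3, Itgal and Itgax) did so only after the burn, so that their place among the members that reached it depends on the direction of their difference. Over all 42 members the median log2 ratio to day 0 was 0.47 at day 5 and 0.31 at day 15, and the median of day 15 over day 5 was -0.14. Over loci with a symbol at FPKM of at least 1 these medians were -0.08, -0.06 and 0.01. None of the 8 members that were apart had an exon overlapped by a gene on the opposite strand, whereas 11 of the 42 rows did.

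**Figure D1:**
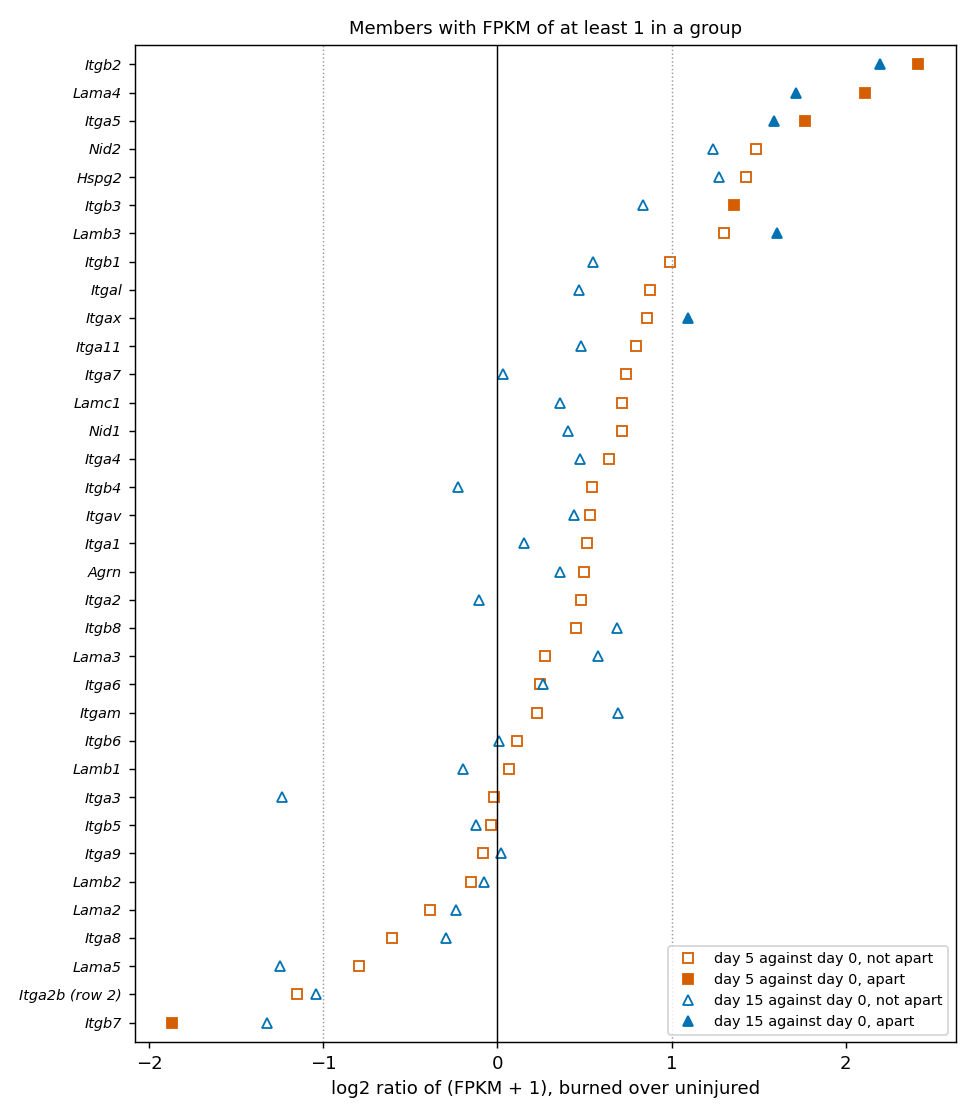
Log2 ratio of (FPKM + 1) of each burned group over day 0, for member rows with FPKM of at least 1 in a group, 1 of the 36 not drawn. Filled symbols are apart and open symbols are not, and dotted lines mark ratios of -1 and 1. Itgb2, Lama4 and Itga5 are filled at both times, and Itgb7 alone is filled on the left, at day 5.

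In the laminin of the epithelial basement membrane, the beta3 chain was higher and apart at day 15 and the alpha3 chain was not apart at either time. Whether the chains differed from each other was not tested. Lamb3, the beta3 chain (chromosome 1, 193207699 to 193343878 on GRCm38), stood at 15.8 (8.70 to 22.8) in uninjured corneas, 40.3 (22.7 to 57.9) at day 5 and 49.996 (28.1 to 71.9) at day 15. It was apart at day 15, 3.17-fold higher. At day 5 it was 2.56-fold higher, and the lower bound of 22.67 fell just under the day 0 upper bound of 22.84.

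Lama3, which makes the alpha3 chain, had the highest FPKM of the laminin transcripts in all 3 groups, with intervals that overlapped those of Lamb3. Lama3 stood at 40.3 (22.1 to 58.6), 49.1 (27.4 to 70.7) and 60.7 (33.7 to 87.7). Its folds of 1.22 and 1.505 were within the intervals. By FPKM, Lamb3 made up 22.0% of the laminin beta chains at day 0 and 49.5% at day 15. The extremes that the intervals allow were 9.67% to 42.7% and 27.2% to 72.9%, and these overlap.

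Epithelial markers were measured beside these chains. Of 9 markers of basal and stratified epithelium, 8 had a usable day 0 value and none was apart in either comparison with day 0. Their medians were 0.06 at day 5 and 0.27 at day 15, and the summed FPKM of those 8 was 5349 at day 0, 5164 at day 5 and 8032 at day 15. Krt14, a keratin of basal cells, stood at 180 (92.4 to 267), 500 (153 to 847) and 760 (205 to 1315), while its partner Krt5 stood at 1199 (0 to 2445), 590 (175 to 1005) and 796 (95.2 to 1498). The part of epithelial cell number in the laminin values was not tested.

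Lama4, the alpha4 chain found in vessel walls, fat and muscle (chromosome 10, 38965515 to 39110188), had the largest log2 ratio of the laminins at day 5. It stood at 4.59 (1.72 to 7.45) at day 0, 23.1 (12.8 to 33.5) at day 5 and 17.3 (9.19 to 25.4) at day 15. It was apart at both times, 5.04-fold and 3.77-fold higher. By FPKM it made up 6.80% of the laminin alpha chains at day 0 (1.72% to 21.6%), 26.6% at day 5 (12.0% to 49.6%) and 18.8% at day 15 (7.68% to 39.1%). Blood vessel markers were measured beside Lama4. Of 7 endothelial markers, 4 were higher and apart at each time, and none was listed at 0. Their summed FPKM was 19.0, 73.3 and 76.5. From day 5 to day 15, 3 of the 7 had higher values and 4 lower, and none was apart. Of 7 pericyte and smooth muscle markers, 1, Acta2, was higher and apart at each time, with a sum of 47.5, 190 and 133. Their part in the Lama4 value was not tested.

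Lama5, the alpha5 chain of many adult epithelia and vessels, stood at 9.02 (0.0180 to 18.02), 4.77 (1.99 to 7.55) and 3.22 (0.845 to 5.60). The day 0 interval was wide, reached nearly to 0 and held both later values, so that Lama5 was not apart although the day 15 value was 2.80-fold lower. Lama2, the alpha2 chain of muscle and nerve sheaths, stood at 13.0 (4.91 to 21.1), 9.71 (4.60 to 14.8) and 10.9 (4.96 to 16.8). Lama1, the alpha1 chain of the embryo and the lens capsule, stayed below FPKM 1 throughout, at 0.524, 0.385 and 0.133.

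The widely made beta1 and beta2 chains, Lamb1 and Lamb2, were not apart. Lamb1 stood at 26.7 (15.1 to 38.3), 28.0 (15.3 to 40.8) and 23.2 (11.4 to 34.9), and Lamb2 at 29.3 (15.6 to 43.0), 26.2 (14.3 to 38.2) and 27.8 (15.3 to 40.2). Lamc1, the gamma1 chain of most laminins, stood at 8.28 (4.36 to 12.2), 14.3 (8.11 to 20.4) and 10.9 (6.00 to 15.8). Lamc3, the gamma3 chain, was below 1 in all groups. The 3 beta chains and Lamc1 thus exceeded FPKM 5 throughout, and of these Lamb3 alone was apart.

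The 4 linkers had higher values in both burned groups than at day 0, and none was apart. Their median log2 ratio was 1.07 at day 5 and 0.82 at day 15. Hspg2, the heparan sulfate proteoglycan perlecan, stood at 10.3 (3.10 to 17.6), 29.4 (10.1 to 48.8) and 26.4 (10.8 to 42.0), folds of 2.85 and 2.56. Nid2, nidogen-2, stood at 2.65 (0 to 7.19), 9.23 (0 to 18.7) and 7.61 (0 to 17.0). Both passed the ratio of 1 at both times and overlapped with day 0. Nid1, nidogen-1, stood at 15.8 (8.95 to 22.6), 26.5 (15.0 to 38.03) and 21.2 (11.7 to 30.7), and Agrn at 11.6 (5.98 to 17.3), 16.8 (9.33 to 24.3) and 15.2 (8.38 to 22.0).

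**Figure D2:**
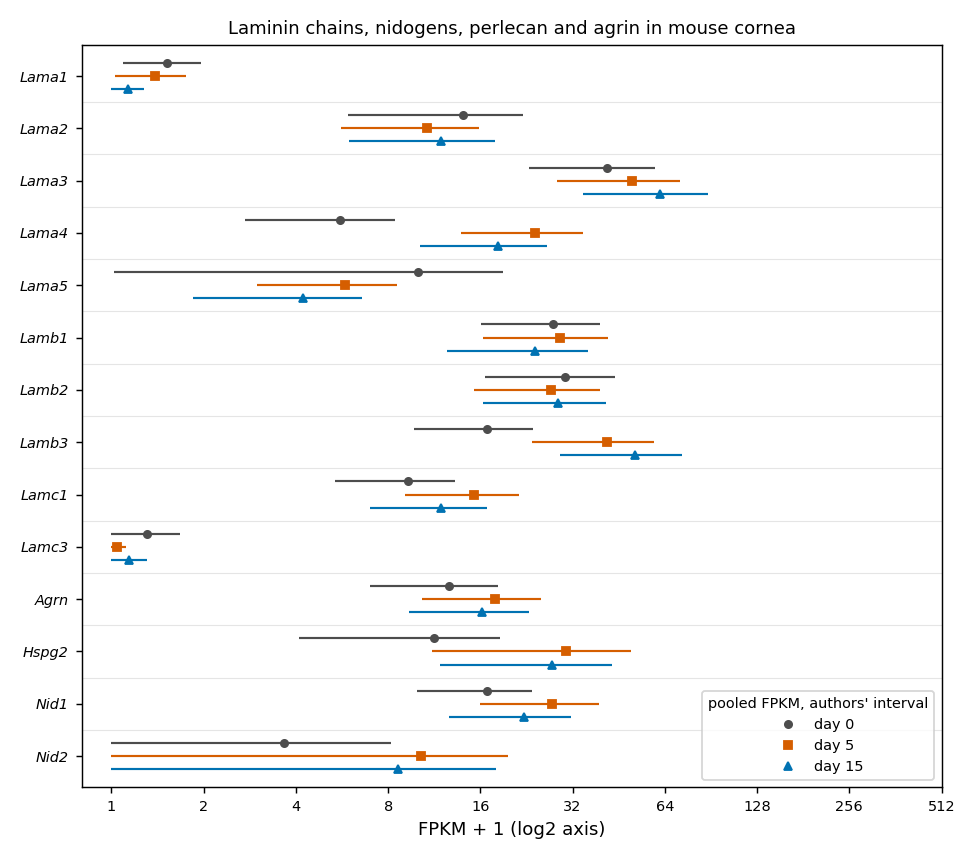
Pooled FPKM + 1 on a log2 axis for 10 laminin chains and the 4 linkers at day 0, day 5 and day 15, with lines for the authors' intervals. The day 0 line of Lama4 ends below those of both burned groups, and the 4 linkers overlap.

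The alpha6 and beta4 integrin chains, the laminin receptor of hemidesmosomes, were not apart in any comparison. Itga6 (chromosome 2, 71745616 to 71858416) had the highest FPKM of the alpha chains, with intervals that overlapped those of Itgam. Itga6 stood at 74.7 (34.1 to 115), 88.7 (44.2 to 133) and 89.8 (44.1 to 136). Its table row shares 1 locus span with 8 other rows, Hat1 and Pdk1 among them, each with a value of its own. Itgb4 (chromosome 11, 115974709 to 116008412) stood at 28.3 (14.8 to 41.8), 41.7 (22.4 to 60.9) and 24.0 (13.3 to 34.8). Itga3, the alpha3 chain, which also binds the epithelial laminin, stood at 22.0 (1.957 to 42.0), 21.7 (9.41 to 34.0) and 8.75 (4.46 to 13.0). Its day 15 value was 2.48-fold below day 5 and not apart from either group. Itga7, a laminin receptor of muscle, stood at 7.497 (0 to 17.2), 13.2 (0.332 to 26.0) and 7.68 (0 to 16.8). Of the 7 skeletal muscle markers, with a summed FPKM of 536, 340 and 73.3, 3 were lower and apart at day 15 than at day 0. Itga7 overlaps Mettl7b on the other strand.

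Itgb1, the beta chain shared by most matrix-binding integrins (chromosome 8, 128685654 to 128733200), had the highest FPKM of the members in every group. Its intervals overlapped those of Itga6. Itgb1 stood at 112 (63.1 to 161), 224 (127 to 320) and 165 (91.5 to 238). The day 5 log2 ratio of 0.99 lay just under the limit, and the intervals overlapped. By FPKM it made up 57.4% of all beta chains at day 0 and 68.9% at day 5, within ranges of 33.9% to 78.9% and 46.0% to 85.9%. Its collagen-binding partners were low: Itga10 stayed below 1, and the others were not apart. Itga11 stood at 3.02 (1.31 to 4.72), 5.97 (2.85 to 9.09) and 4.60 (2.07 to 7.13). Itga2 stood at 2.89 (1.34 to 4.45), 4.43 (2.27 to 6.59) and 2.62 (1.21 to 4.02), and Itga1 at 1.99 (0.756 to 3.23), 3.27 (1.51 to 5.04) and 2.32 (1.10 to 3.54).

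Among integrins that bind the RGD motif of fibronectin and vitronectin, Itga5 and Itgb3 were apart from day 0. Itga5, the alpha5 chain of the main fibronectin receptor (chromosome 15, 103344286 to 103366763), stood at 0.648 (0.111 to 1.18) at day 0, 4.60 (2.12 to 7.07) at day 5 and 3.95 (1.82 to 6.08) at day 15. Both burned groups lay wholly above day 0, 7.10-fold and 6.09-fold, folds that rest on a day 0 value below 1. Itgb3, the beta3 chain of activated endothelium, platelets and osteoclasts (chromosome 11, 104608000 to 104670476), stood at 0.654 (0.119 to 1.19), 3.25 (1.44 to 5.05) and 1.958 (0.709 to 3.21). It was apart at day 5, 4.96-fold higher, a fold that also rests on a day 0 value below 1, and not at day 15. The difference between days 5 and 15 was itself within the intervals.

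Itgav, the alpha chain that pairs with beta3, beta5, beta6 and beta8, stood at 28.6 (15.98 to 41.2), 41.8 (23.4 to 60.2) and 39.2 (21.9 to 56.5). Its other partners showed no difference beyond the intervals. Itgb5 stood at 27.8 (15.7 to 40.0), 27.1 (14.7 to 39.6) and 25.5 (14.1 to 36.9), Itgb8 at 2.95, 4.40 and 5.35, and Itgb6, an epithelial chain that can release active transforming growth factor beta, at 7.77 (3.97 to 11.6), 8.49 (4.35 to 12.6) and 7.84 (4.02 to 11.7). Itga8, a receptor for nephronectin, stood at 2.60, 1.37 and 1.94. Itga9, which binds tenascin, stood at 3.35 (1.57 to 5.12), 3.11 (1.17 to 5.05) and 3.40 (1.42 to 5.39).

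The platelet chain Itga2b had 2 rows with the same span. The row with 4 start sites stood at 10.01 (0 to 23.6), 3.96 (0 to 9.42) and 4.34 (0 to 11.1), and the other stayed below 1, at 0.849, 0.495 and 0.892. How reads were divided between them is unknown, so the level of Itga2b is uncertain. Of 7 platelet and megakaryocyte genes, Pf4 and Ppbp were higher and apart at both times. The platelet membrane gene Gp6 was listed at 0 in every group, and the merged Gp1bb and Sept5 locus was lower and apart at day 5. The summed FPKM of the 6 genes on loci of their own was 12.4, 1061 and 471, and the chemokine genes Ppbp (0.0343, 923 and 363) and Pf4 (11.5, 137 and 107) made up nearly all of it. The part of platelets in Itga2b and Itgb3 was not tested.

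Among chains of white blood cells, Itgb2 and Itgax were higher and apart after the burn and Itgb7 was lower. Itgb2, the beta2 chain common to all of the leukocyte-restricted alpha chains L, M, X and D (chromosome 10, 77530252 to 77565708), stood at 1.63 (0.396 to 2.87) at day 0, 13.1 (6.84 to 19.3) at day 5 and 11.1 (5.69 to 16.5) at day 15. It had the largest log2 ratios among the members, 2.42 and 2.199, and was apart at both times, 7.99-fold and 6.79-fold higher. Itgax, the X chain of dendritic cells and macrophages (chromosome 7, 128129547 to 128150657), stood at 0.363 (6.5e-05 to 0.725), 1.47 (0.4995 to 2.45) and 1.91 (0.727 to 3.10), and was apart only at day 15, where the bounds of 0.725 and 0.727 nearly touched. The intervals of days 5 and 15 overlapped.

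Itgam, the M chain of neutrophils and macrophages (chromosome 7, 128062640 to 128118491), was not apart. Its locus span ends at 128127041, past that gene end. Whether reads from beyond the gene entered the value is unknown. Itgam already stood at 34.0 (18.6 to 49.4) at day 0, far above Itgb2 per length, and was at 40.0 (22.0 to 58.0) and 55.7 (29.5 to 81.9) after the burn. Itgal, the L chain of lymphocytes and other leukocytes, stood at 0.186 (0 to 0.435), 1.17 (0.295 to 2.05) and 0.642 (0.148 to 1.14), not apart. Itgae, the E chain of T cells within epithelia, stayed below 1, at 0.0355, 0.266 and 0.413, and Itgad, the D chain, at 0.0114 or less. Itga4, an alpha chain of lymphocytes and other cells, stood at 2.59 (0 to 6.17), 4.61 (0.578 to 8.64) and 3.99 (0.347 to 7.63), and overlaps Cerkl on the other strand.

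Itgb7, the beta chain that pairs with the 4 and E alpha chains on lymphocytes (chromosome 15, 102215995 to 102231944), was the only member lower and apart. It stood at 13.8 (7.37 to 20.3) at day 0, 3.06 (1.09 to 5.04) at day 5 and 4.92 (2.02 to 7.82) at day 15. The day 5 value was 4.51-fold lower. At day 15 it was 2.81-fold lower, and the bounds of 7.37 and 7.82 overlapped slightly.

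White blood cell markers were measured in the same groups. Of 7 pan-leukocyte genes, 3 were higher and apart at day 5 and 4 at day 15, with a summed FPKM of 29.8, 157 and 133. Cd53 stood at 2.65, 23.5 and 21.8. Of 9 neutrophil and macrophage genes, 8 were found, on 9 rows because Csf3r has 2, and 6 rows were higher and apart at day 5 and 5 at day 15. The summed FPKM of 8 of these rows, without the merged Cd68 locus, was 98.6, 874 and 822. Lyz2, a lysozyme of myeloid cells, carried much of that sum, at 68.3, 385 and 685. The median log2 ratio of the 9 rows from day 5 to day 15 was -1.24, and Cd14, a monocyte receptor, and S100a9, a neutrophil protein, were lower and apart at day 15 than at day 5. Cd14 stood at 4.12, 75.1 and 19.9, and S100a9 at 19.5, 242 and 63.1. The 7 T and NK cell genes summed to 1.07, 5.98 and 6.34, none was apart, and Cd3d, Cd8a and Nkg7 were listed at 0 at day 0. The part of cell numbers in Itgb2, Itgax and Itgb7 was not tested.

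**Figure D3:**
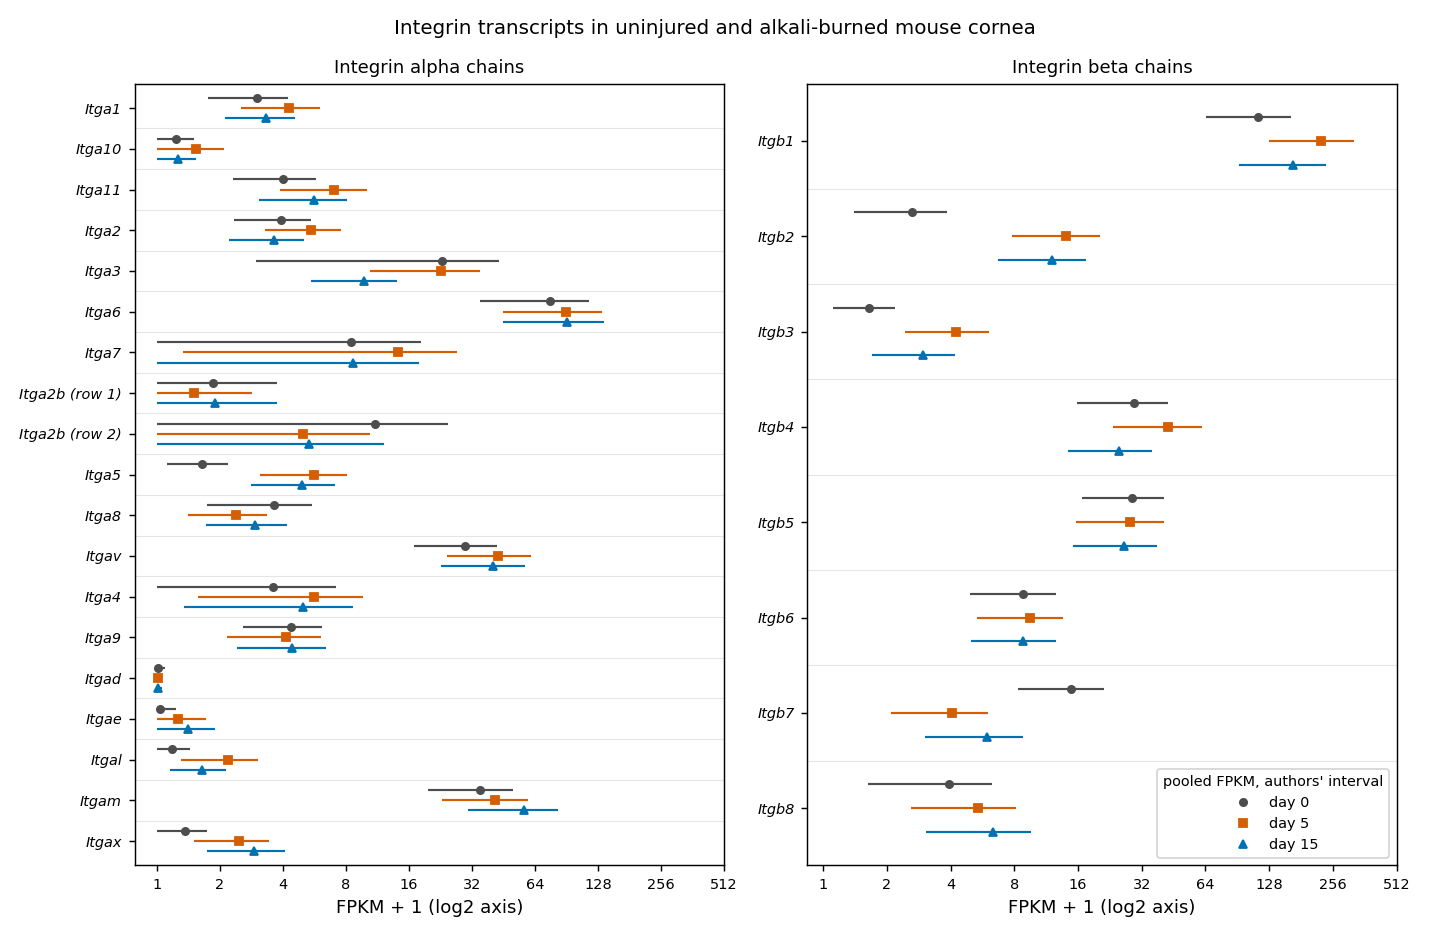
Pooled FPKM + 1 on a log2 axis for integrin alpha chains (left) and beta chains (right) at day 0, day 5 and day 15, with lines for the authors' intervals. Itga5, Itgb2 and Itgb3 have day 0 lines ending below those of day 5, Itgb7 has the reverse order, and Itgam and Itgb1 overlap across groups.

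Start-site sequences are shown for the members that were apart, to set the higher ones beside the lower one. RefSeq promoter sequence (GRCm38.p6, 250 bases before to 50 after the start) was matched by symbol for 26 of the 41 genes, among them 4 of the 8 that were apart. Capitals mark matches on either strand to TGANTCA, a motif of the injury-responsive factor AP-1, or to GAGGAA, a motif of the myeloid factor PU.1; the motifs do not overlap here. Lamb3 lies at chr1:193301744-193302043 on the plus strand, Itga5 at chr15:103366742-103367041 on the minus strand, Itgax at chr7:128129300-128129599 on the plus strand and Itgb7 at chr15:102231886-102232185 on the minus strand. Lamb3 has 2 such promoters, and the 1 nearest the start of its locus in the authors' table is shown. That window lies within the annotated Lamb3 gene, past its start.
Lamb3: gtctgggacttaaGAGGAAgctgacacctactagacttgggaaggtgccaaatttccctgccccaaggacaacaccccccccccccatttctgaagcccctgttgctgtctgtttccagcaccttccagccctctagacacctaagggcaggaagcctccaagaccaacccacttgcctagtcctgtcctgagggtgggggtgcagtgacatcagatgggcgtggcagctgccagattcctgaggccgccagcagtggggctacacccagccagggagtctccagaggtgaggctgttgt
Itga5: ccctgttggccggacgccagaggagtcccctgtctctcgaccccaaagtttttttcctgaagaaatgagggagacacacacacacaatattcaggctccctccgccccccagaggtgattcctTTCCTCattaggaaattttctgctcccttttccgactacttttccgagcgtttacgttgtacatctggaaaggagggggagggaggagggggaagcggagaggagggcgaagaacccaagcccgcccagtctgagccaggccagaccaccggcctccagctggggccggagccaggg
Itgax: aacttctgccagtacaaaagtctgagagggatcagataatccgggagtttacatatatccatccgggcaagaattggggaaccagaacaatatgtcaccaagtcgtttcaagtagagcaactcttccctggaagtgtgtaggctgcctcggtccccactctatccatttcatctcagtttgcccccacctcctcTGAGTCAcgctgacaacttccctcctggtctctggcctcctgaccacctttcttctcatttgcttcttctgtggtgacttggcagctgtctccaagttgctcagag
Itgb7: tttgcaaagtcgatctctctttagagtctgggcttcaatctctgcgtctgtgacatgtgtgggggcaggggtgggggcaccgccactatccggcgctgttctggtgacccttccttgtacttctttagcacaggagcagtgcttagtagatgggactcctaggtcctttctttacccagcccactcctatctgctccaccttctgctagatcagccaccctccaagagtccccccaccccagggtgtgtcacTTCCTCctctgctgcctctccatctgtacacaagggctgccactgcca

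Lamb3, Itga5 and Itgb7 each held 1 GAGGAA match and no TGANTCA match, and Itgax held 1 TGANTCA match and no GAGGAA match. The higher Lamb3 and Itga5 and the lower Itgb7 thus held the same motif. Over the 32851 promoters of the table, 28.3% held GAGGAA and 7.81% held TGANTCA. Over the 30 promoters of members, 15 held the former and 3 the latter. These matches describe letters in a window and no binding was measured.

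The title of the study names miR-204. Its mature form is shown with the seed, bases 2 to 8, in capitals, above 3 members whose longest annotated 3' untranslated region (GENCODE M21) holds the complement AAAGGGA, in capitals.
mmu-miR-204-5p: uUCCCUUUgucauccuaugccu
Itga1: acctcaagctcatcAAAGGGAcga
Itga11: atccctaaggactaAAAGGGAccc
Lamc1: caagctgacagggtAAAGGGAtta

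Of 41 members, 7 held such a match (17.1%), against 2930 of 19262 genes of the table (15.2%). They were Itga1, Itga2, Itga11, Itga4, Itga8, Itgae and Lamc1, and none was among the 8 that were apart. The median length of the region was 1112 bases for members and 1003 for all genes.

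Partners of these members were followed through 5 lists. Hemidesmosome partners of the alpha6 and beta4 integrin were not apart, with medians of -0.36 and -0.24 over 4 genes. Col17a1, a collagen that spans the basal cell membrane, stood at 224 (97.0 to 350), 94.2 (51.5 to 137) and 75.8 (41.5 to 110), 2.37-fold and 2.95-fold lower and overlapping. Cd151 stood at 80.1, 74.1 and 80.1, and Dst, the dystonin gene, at 66.5, 43.3 and 53.4. Plec shares a merged locus with Parp10.

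Basement membrane collagens split in 2 directions. Of 9, 1 was higher and 2 were lower and apart at day 5, and 1 and 1 at day 15, with medians of 0.28 and 0.39. Col18a1, a vessel and epithelial basement membrane collagen, stood at 3.10 (1.10 to 5.11), 46.7 (26.0 to 67.5) and 32.8 (18.6 to 46.9). Col4a3 stood at 9.55 (3.95 to 15.2), 0.422 (0.0123 to 0.833) and 1.77 (0.555 to 2.98), lower and apart at both times. Col4a4, which assembles with it, stood at 7.85 (1.81 to 13.9), 0.668 (0.0858 to 1.25) and 2.01 (0.638 to 3.37), lower and apart at day 5. Col4a1, of the common type IV network, stood at 13.1 (4.70 to 21.5), 41.7 (14.6 to 68.8) and 29.7 (10.6 to 48.8), with overlapping intervals.

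Other basement membrane genes and laminin receptors had more lower than higher calls. Of 13, 1 was higher and 4 were lower and apart at day 5, and 1 and 3 at day 15, with medians of -0.27 and -0.30. Frem2 and Fras1, partners in a matrix complex under epithelia, stood at 8.80 (4.82 to 12.8), 0.734 (0.244 to 1.22) and 0.786 (0.271 to 1.30), and at 6.54 (3.55 to 9.53), 0.730 (0.278 to 1.18) and 0.555 (0.165 to 0.945). Npnt, which encodes the Itga8 ligand nephronectin, stood at 11.3 (6.12 to 16.4), 2.87 (1.30 to 4.44) and 2.91 (1.31 to 4.51). These 3 were lower and apart at both times. Ntn4, a netrin that binds laminin, was lower and apart at day 5 alone, at 29.9 (16.9 to 42.9), 7.51 (3.12 to 11.9) and 12.0 (5.73 to 18.3). Fbln2, a basement membrane fibulin, was higher and apart at both times, at 15.0 (7.86 to 22.2), 88.7 (47.6 to 130) and 53.5 (30.7 to 76.3).

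**Figure D4:**
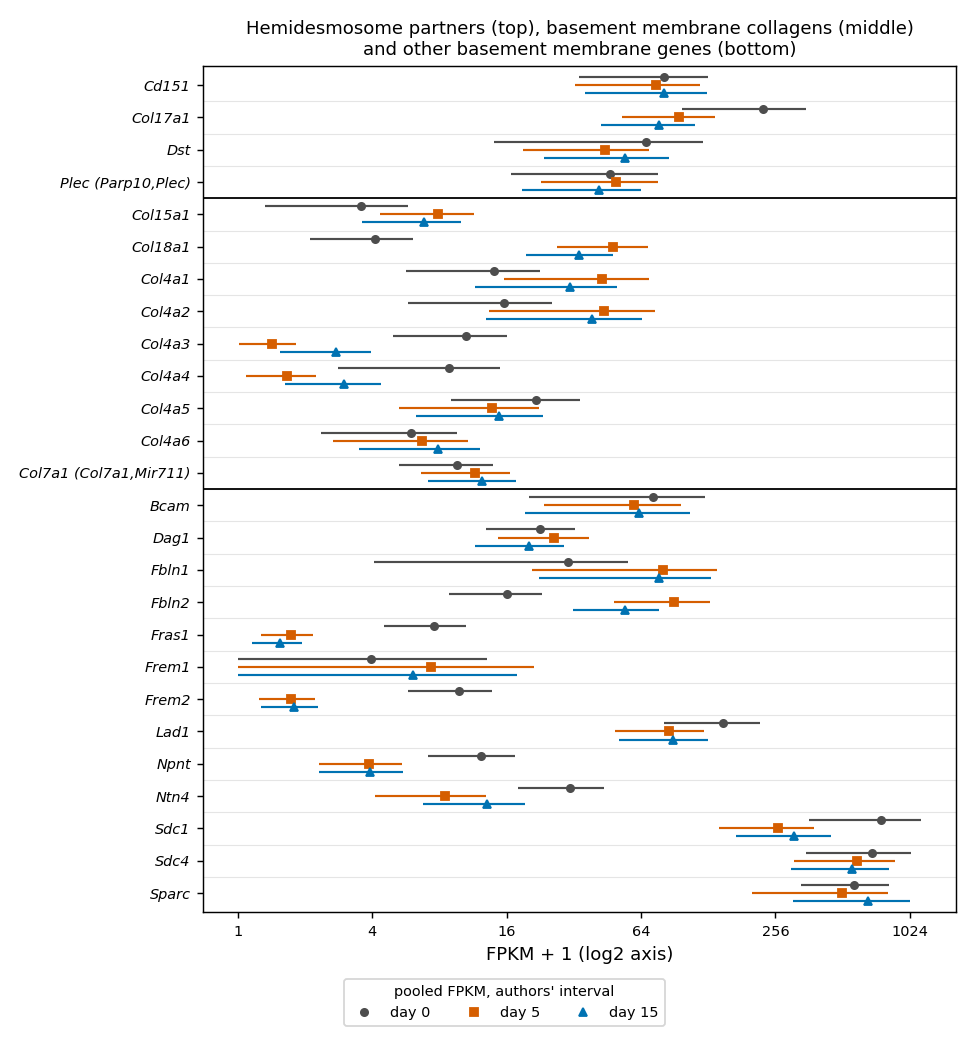
Pooled FPKM + 1 on a log2 axis for hemidesmosome partners, basement membrane collagens and other basement membrane genes, with lines for the authors' intervals. Col18a1 and Fbln2 lie to the right of day 0 after the burn, and Col4a3, Fras1, Frem2 and Npnt to the left.

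Of 19 integrin adaptors inside the cell, none was higher and 1 was lower and apart at each time, with medians of 0.19 and -0.08. With 2.5% of all loci lower at day 5 and 1.81% at day 15, a count of 1 in 19 is near the whole-table share. That gene was Fermt3, the kindlin of blood cells, at 34.5 (19.5 to 49.6), 8.11 (3.61 to 12.6) and 9.66 (5.26 to 14.1). Tns4, a tensin of focal adhesions, stood at 37.2, 20.2 and 14.01, Zyx, zyxin, at 23.1, 52.8 and 26.8, and Parvg, a parvin of blood cells, at 0.878, 2.96 and 2.79, none of them apart.

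Ligands of integrins other than laminin had the most higher calls. Of 16, 7 were higher and apart at day 5, 6 at day 15 and none lower at either, with medians of 1.06 and 0.95 over all 16. Col3a1, of type III collagen, stood at 67.7, 1351 and 1019, Postn, the matricellular protein periostin, at 26.6, 331 and 324, and Spp1, osteopontin, at 15.2, 71.4 and 155, all higher and apart at both times. Icam1, a ligand of the beta2 integrins, stood at 4.14 (1.27 to 7.01), 28.0 (14.9 to 41.1) and 21.6 (11.3 to 31.9). Tnc, the tenascin bound by the alpha9 chain, stood at 12.7 (6.11 to 19.2), 108 (50.1 to 167) and 115 (53.2 to 176). Fn1, fibronectin, stood at 60.6 (21.5 to 99.7), 136 (40.2 to 231) and 121 (40.8 to 201) and was not apart. Fga and Fgg, chains of fibrinogen, were listed at 0 throughout.

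Marker transcripts of the cornea were detected in all groups, and those of other tissue were too. The source of the latter was not tested. Aldh3a1, an enzyme of the corneal epithelium, stood at 9150, 303 and 866, and was lower and apart at day 5. Of the stromal proteoglycan genes, Kera, keratocan, stood at 516 (276 to 755), 11.2 (4.98 to 17.5) and 16.2 (7.35 to 25.0), lower and apart at both times. Dcn, decorin, stood at 3484, 1388 and 2104, and Lum, lumican, at 237, 243 and 286, neither apart. Krt12, the keratin of the corneal epithelium, had no usable day 0 value. Of the 5 corneal markers with a day 0 value, 2 were lower and apart at day 5 and 1 at day 15. The 7 lens markers summed to 283, 26.0 and 190. Of these, 3 (Cryaa, Cryba1 and Crybb2) were lower and apart at day 5 than at day 0. The same 3 were higher and apart at day 15 than at day 5, and none was apart between day 15 and day 0.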

How the data were processed

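RNA-seq was done on 6 samples of whole mouse cornea in 3 groups of 2. The deposited values are FPKM with the lower and upper bound of the authors' interval, 1 set per group, pooled over its samples per the file headers. Cufflinks 2.2.1, TopHat2 2.1.0 and Bowtie2 2.2.6, with Cuffdiff and the mm10 build, are listed per the submitters' processing notes. The annotation and strandedness are not given in the sources used here.

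Log2 ratios were computed with a pseudocount of 1, which understates differences of low genes, over all 28539 rows. The rule for calling groups apart stands in the report and was tested on simulated data. Those data were drawn from the authors' intervals, so they cannot show how the rule behaves under replicate spread. No pseudocount entered the folds. Bounds on a chain's share put that chain at one end of its interval and the others at the opposite end. Gene coordinates are from GENCODE M21 (GRCm38). A locus span of the table can cover several rows, as for 15 member rows, and 0 member rows name more than 1 gene.

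The text names every member but 1, which enters the counts and is not reported here, gives values in all groups for members apart, abundant or central, and names up to 4 genes of each of 5 partner lists and up to 3 of each of 11 marker lists; Npnt, Icam1, Fn1, Fga, Fgg, Gp1bb, Lyz2, Cd14, S100a9, Kera and Dcn fall outside this and were chosen after their values were seen. Members and lists were chosen with earlier results of these data known. Alternatives varied the pseudocount, minimum FPKM, ratio, use of intervals, scaling and merged loci. Python 3.11.15, numpy 2.4.6, pandas 2.3.3 and matplotlib 3.10.9 were used.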

Additional observations from a re-analysis of the deposited data

How the results depend on the processing

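Of the members called apart, which were called depended mostly on the minimum level, the ratio and the intervals. With FPKM of at least 5 required, 3 members were higher and apart at day 5, without Itga5 and Itgb3, and Itga5 and Itgax were lost at day 15. Over the whole table, 430 of the 533 loci higher and apart at day 5 remained, and 360 of 442 at day 15. With a log2 ratio of at least 2, 2 members (Itgb2 and Lama4) were higher and 0 lower at day 5, and 1 (Itgb2) was higher at day 15. This ratio left 308 of the 533 higher loci and 199 of the 389 lower loci at day 5. At day 15 it left 232 of the 442 higher loci. Without the intervals, 8 were higher and 2 lower at day 5 against day 0, and 8 were higher and 4 lower at day 15. Among all loci that reached FPKM 1, 1687 of 15576 were then higher and 1722 lower at day 5. At day 15, 1270 of 15186 were higher and 1432 lower. Of the members, 1, Itga3, was lower at day 15 than at day 5, against 492 of 14683 loci. Rescaling the groups to a median ratio of 0 over loci at FPKM of at least 5 shifted day 5 by 0.11 and day 15 by 0.07 (log2), and added Lamb3 to the members higher and apart at day 5. A pseudocount of 0.1 changed none of the member counts. Dropping the minimum or the merged loci could not change them, because a log2 ratio of 1 at this pseudocount already needs an FPKM of 1 and 0 members lie on merged loci. A change of direction could not occur for the members that were apart, so none of the 7 alternatives tests it. Cut-offs leave the log2 ratio as it is, and a pseudocount keeps its sign. The rescaling shifts were smaller than the ratio of 1 that a call requires. The median log2 ratio of members at day 5 against day 0 was 0.52 over those that reached FPKM 1. It ranged from 0.47 without the minimum to 0.61 after rescaling. A spread for these medians was not computed. No paired analysis was possible because the table holds no columns of single samples, and for the same reason no replicate could be left out. Depth is unknown, and intervals that reach 0, as for Nid2 and Itga7, limit what could be called.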

Other observations

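Some chains that pair in 1 receptor stood at unequal levels per length. Itgam, whose locus span runs past the annotated gene end, was at 34.0 FPKM at day 0 while Itgb2, its beta chain, was at 1.63. The values were 40.0 and 13.1 at day 5 and 55.7 and 11.1 at day 15. Itgb7 was at 13.8 at day 0, while its alpha partners Itga4 and Itgae were at 2.59 and 0.0355. Lama3 and Lamb3, chains of 1 laminin, stood at 40.3 and 15.8 at day 0 and at 60.7 and 49.996 at day 15. Of 7 Schwann cell markers, 1, S100b, was lower and apart at day 5, at 20.1 (9.17 to 31.1) and 4.25 (1.05 to 7.45).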
